A study of Mus musculus with 10 samples.

Results

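Store-operated calcium entry is the route by which a T cell refills and signals with calcium after its antigen receptor is engaged, and 10 genes that build it were followed here by RNA sequencing in mouse Th17 cells kept with TMP269 or with DMSO. The genes were taken by symbol, with earlier results of these data known. Among them are the IP3 receptors Itpr1, Itpr2 and Itpr3 and the calcium sensors Stim1 and Stim2. The others are the channel subunits Orai1, Orai2 and Orai3 and the SERCA pumps Atp2a2 and Atp2a3. The set is 10 of the 17493 genes in the table, and all 10 were among the 12535 genes tested. In the TMP269 group, naive CD4 T cells from the spleens of C57BL/6 mice had been driven towards Th17 cells by plate-bound antibodies to CD3 and CD28 together with 20 ng/mL IL-6 plus 2.5 ng/mL TGF-beta for 48 to 72 h, and TMP269 was added ahead of harvest. The DMSO group had the same stimulation and cytokines and is labelled as the control. TMP269 is a selective inhibitor of the class IIa histone deacetylases, and DMSO is a common solvent for such compounds. The sources used here do not state the TMP269 dose, the exposure time, or the age and sex of the mice. They also do not say whether the 2 libraries of a group came from separate cultures or animals, so the spread behind each p-value may be technical. The 6 chromatin libraries of the series are not analysed here.

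When the T cell receptor is triggered, phospholipase C gamma makes IP3, which opens IP3 receptors in the membrane of the endoplasmic reticulum and lets stored calcium out. STIM proteins sense the emptied store, gather where that membrane touches the plasma membrane, and open ORAI channels there. The calcium that enters activates calcineurin and with it the NFAT transcription factors, while SERCA pumps return calcium to the store. Loss of ORAI1 or STIM1 in people causes a severe immunodeficiency with T cells that fail to activate, and mouse Th17 cells need store-operated entry for normal cytokine production.

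The IP3 receptor genes Itpr1 and Itpr2, the sensor gene Stim1 and the channel genes Orai1 and Orai2 were higher in cells with TMP269, by 1.25-fold to 1.61-fold. The other 5 genes, Itpr3, Stim2, Orai3, Atp2a2 and Atp2a3, did not pass the test. Thus 5 of 10 genes (50%) were called higher and 0 lower at an adjusted p under 0.05, with limma on log2(value + 1) and Benjamini-Hochberg adjustment over all 12535 genes. Among all tested genes 27.5% were called, 12.8% higher and 14.7% lower. The median log2 fold change was 0.29 over the 10 genes and 0.00 over all tested genes. The genes were named with earlier results of these data known, and no test of the group as a whole was made. The count of 5 became 3 without TMP269 replicate 1, 4 without TMP269 replicate 2, 5 without DMSO replicate 1 and 4 without DMSO replicate 2.

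**Figure D1:**
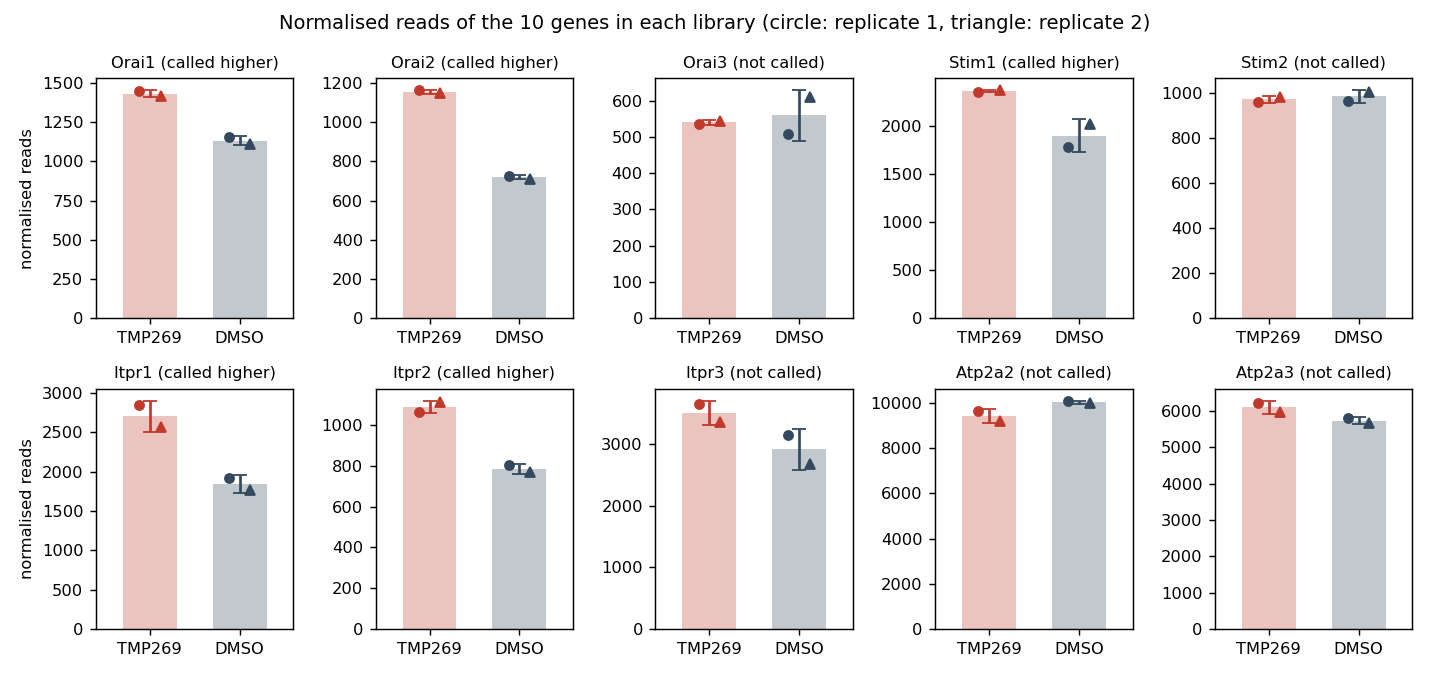
Normalised reads (y axis, from 0) of each of the 10 genes in TMP269 and DMSO libraries; bars are group means, error bars SD (n = 2), circles replicate 1 and triangles replicate 2. For Orai2 the TMP269 libraries lie at 1162 and 1147 and the DMSO libraries at 726 and 712, whereas for Stim2 all 4 libraries lie between 959 and 1005.

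The values are reads per gene divided by 1 size factor per library, called normalised reads here. The libraries held 20007042 to 25321455 recovered reads, of which 21839 to 30188 fell on the 10 genes. Counting alone gives a relative SD of at most 4.45% (Orai3, 505 reads in its shallowest library), and such counting errors cover sampling of reads only. The ribosomal RNA gene Rn45s took 0.716% to 1.12% of the TMP269 libraries and 0.836% and 2.20% of DMSO replicates 1 and 2. T cell markers were abundant, Cd4 at 9479 and 8896 normalised reads with TMP269 and 8299 and 8263 with DMSO, and 1 of 7 tested T cell markers was called higher and 0 lower. Of the Th17 markers, Il17a (log2 fold change -1.32, limma adjusted p = 1.27e-04) and Il17f (-1.06, limma adjusted p = 0.00113) were among the 3 of 6 called lower, and Il2, the T cell growth factor, was called higher (1.76, limma adjusted p = 1.27e-04). All 10 B cell markers were detected in every library. Their summed level was 2541 and 2614 normalised reads with TMP269 and 4646 and 4977 with DMSO, with 8 of 10 called lower and 0 higher. Of the other marker lists, 0 of 2 tested CD8 T cell genes were called, 1 of 2 NK cell genes was called lower, 1 of 4 myeloid genes higher, 1 of 4 dendritic cell genes lower, and 0 of 1 gene of erythroid cells and platelets. Several of the 10 calcium genes are also used by B cells and myeloid cells, and the part of these cells in the differences was not tested. In such bulk RNA, fewer cells of a type and less RNA per cell cannot be told apart.

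The IP3 receptors are the release channels of the store, very large proteins that assemble as tetramers and that T cells make in all 3 forms. Itpr1 had 2847 and 2563 normalised reads with TMP269, against 1923 and 1761 with DMSO. Both TMP269 libraries lay above both DMSO libraries, by 641 normalised reads at the nearest. Its mean was 2705 ± 200.2 with TMP269 and 1842 ± 114 with DMSO (SD, n = 2 each), a 1.47-fold rise (log2 fold change 0.55 ± 0.09 SE, limma adjusted p = 0.00311). Itpr2, the form with the highest affinity for IP3, had 1066 and 1110.3 normalised reads with TMP269, against 802 and 768 with DMSO. It rose 1.39-fold (log2 fold change 0.47 ± 0.09 SE, limma adjusted p = 0.00577), again with separate groups. Itpr1 and Itpr2 were called higher in all 14 alternative analyses, with log2 fold changes of 0.48 to 0.66 for Itpr1 and 0.44 to 0.57 for Itpr2.

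Itpr3, the form that took the most reads of the family, had 3649.6 and 3363 normalised reads with TMP269, against 3151 and 2685 with DMSO. The groups did not overlap, but the DMSO libraries differed by 16.0% of their mean, and the gene was not called (log2 fold change 0.27, 95% interval 0.05 to 0.49, limma adjusted p = 0.0673). Leaving out DMSO replicate 1 brought it past the threshold (limma adjusted p = 0.0163), as did equal library totals without Rn45s (0.0428). Leaving out DMSO replicate 2 lowered the log2 fold change of Itpr3 to 0.15 (limma adjusted p = 0.336), and leaving out TMP269 replicate 1 gave 0.21 (0.282). It was called in 3 of the 14 alternatives. Groups that do not overlap are common in this table: the pairs were separate for 66.6% of tested genes, with TMP269 above for 32.6% and below for 34%. Among the 10 calcium genes this held for 7 above and 1 below, and Orai3 and Stim2 overlapped.

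STIM1 and STIM2 are single-pass proteins of the endoplasmic reticulum with a calcium-binding EF hand in the lumen; STIM1 answers to deep emptying of the store, and STIM2 to small drops. Stim1 had 2359.7 and 2377 normalised reads with TMP269, against 1783 and 2025 with DMSO. The TMP269 pair was close together and above both DMSO libraries, which were 12.7% of their mean apart. The mean was 2368 ± 12.4 with TMP269 and 1904 ± 171 with DMSO (SD, n = 2 each), a 1.25-fold rise (log2 fold change 0.32 ± 0.09 SE, limma adjusted p = 0.0264). This call depended on single libraries. It did not hold when TMP269 replicate 1 was left out (limma adjusted p = 0.0715), nor TMP269 replicate 2 (0.0763) or DMSO replicate 1 (0.108), where the log2 fold change was 0.32, 0.31 and 0.23.

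Stim2 had 959 and 983 normalised reads with TMP269, against 965 and 1005 with DMSO, and the groups overlapped. Its log2 fold change was -0.02 with a 95% interval of -0.21 to 0.17 (limma adjusted p = 0.883), so a change of the size seen for Stim1 lay outside the interval. Within each library the ratio of Stim1 to Stim2 reads, which does not depend on how libraries are scaled, was 2.46 and 2.42 with TMP269 and 1.85 and 2.02 with DMSO. Stim1 thus made up 71.1% and 70.7% of STIM reads with TMP269 and 64.9% and 66.8% with DMSO. The groups were separate, but an exact permutation test of 2 against 2 libraries cannot give a two-sided p below 0.333, which is the value here.

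ORAI proteins form the pore of the calcium release-activated channel as hexamers. ORAI1 carries most of this current in T cells, and in mouse T cells ORAI2 joins ORAI1 in mixed channels and lowers their current. Orai2 showed the largest rise of the 10 genes, with 1162 and 1147 normalised reads under TMP269, against 726 and 712 under DMSO. Each pair lay within 2.02% of its mean, and the groups were 421 normalised reads apart at the nearest. Counting alone gives a relative SD of up to 4.12% for this gene, so such close pairs do not measure its precision. The mean was 1155 ± 10.2 with TMP269 and 719 ± 10.2 with DMSO (SD, n = 2 each), a 1.61-fold rise (log2 fold change 0.68 ± 0.09 SE, limma adjusted p = 0.00119). Orai2 was called in all 14 alternative analyses, with log2 fold changes of 0.67 to 0.79, and 7.41% of all tested genes had a larger log2 fold change.

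Orai1 had 1449 and 1416 normalised reads with TMP269, against 1154 and 1111 with DMSO. It rose 1.26-fold (log2 fold change 0.34 ± 0.08 SE, limma adjusted p = 0.0160), with separate groups. The rise did not pass when TMP269 replicate 1 (limma adjusted p = 0.0844) or DMSO replicate 2 (0.0688) was left out, while the log2 fold change stayed at 0.32 and 0.31. Orai3, a subunit that in mammals also joins channels opened without store emptying, had 535 and 545 normalised reads with TMP269, against 509 and 609 with DMSO. The TMP269 libraries lay between the DMSO libraries, and the log2 fold change was -0.04 (95% interval -0.31 to 0.22, limma adjusted p = 0.805).

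The make-up of the ORAI family differed between the groups. Orai1 had 1.25 and 1.23 reads per Orai2 read in the TMP269 libraries, against 1.59 and 1.56 in the DMSO libraries. The difference in the mean log2 ratio was -0.34, and it lay between -0.36 and -0.33 when any 1 library was left out (exact permutation p = 0.333, the smallest possible). Orai2 made up 36.9% of ORAI reads in both TMP269 libraries and 30.4% and 29.3% in the DMSO libraries, while Orai3 made up 17.0% and 17.5% with TMP269 and 21.3% and 25.05% with DMSO. Orai1 held 46.1% and 45.6% with TMP269 and 48.3% and 45.7% with DMSO. These are shares of reads, not of molecules, since they are not divided by transcript length. Summed over the 3 genes, ORAI reads came to 3127 ± 26.6 normalised reads with TMP269 and 2411 ± 29.5 with DMSO (SD, n = 2 each). STIM reads per ORAI read were 1.05 and 1.08 with TMP269 and 1.15 and 1.25 with DMSO (exact permutation p = 0.333).

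**Figure D2:**
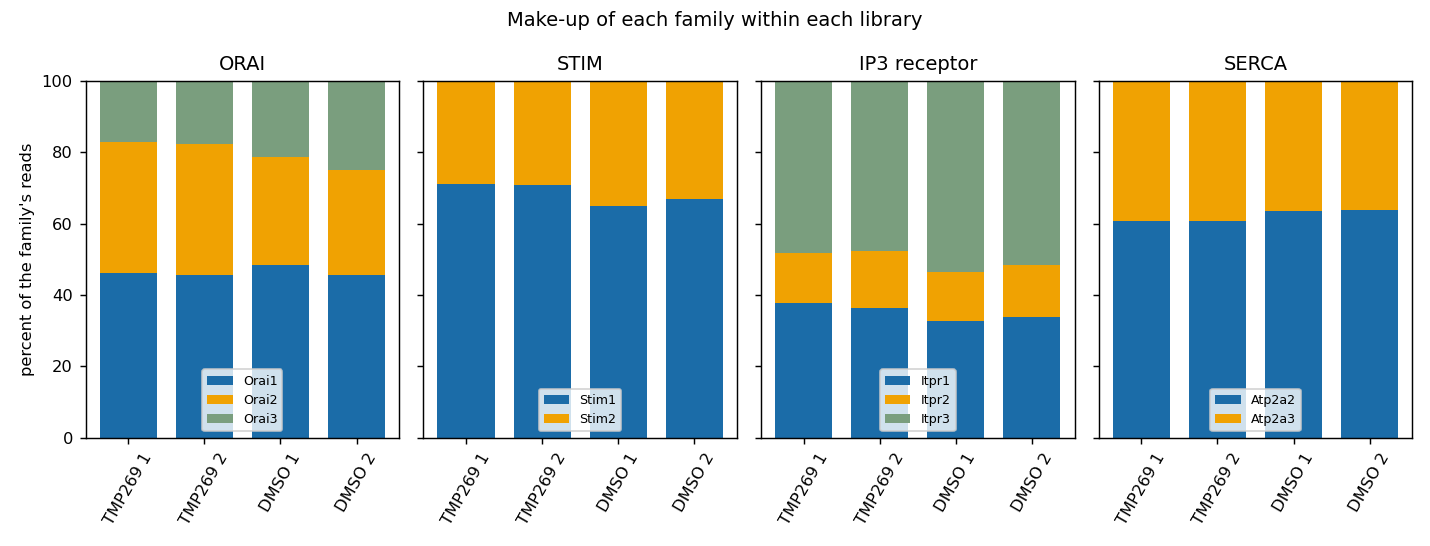
Share of each gene in the reads of its family (y axis, percent) within each library, TMP269 libraries left of DMSO libraries; no error is drawn because each bar is 1 library. The Orai2 share is 36.9% in both TMP269 libraries and 30.4% and 29.3% in the DMSO libraries, and the Stim1 share is higher in both TMP269 libraries.

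Promoter sequences of 5 genes are shown because Orai1, Orai2 and Stim1 rose while their paralogs Orai3 and Stim2 did not pass. Each runs 5′ to 3′ on the strand of its gene from 250 bases before to 50 bases after the RefSeq start, in build GRCm38.p6: Orai1 at chr5:123014824-123015123 on the plus strand, Orai2 at chr5:136170607-136170906 on the minus strand, Orai3 at chr7:127769565-127769864 on the plus strand, Stim1 at chr7:102267569-102267868 on the plus strand and Stim2 at chr5:53998273-53998572 on the plus strand. Capitals mark CACGTG, the E-box bound by basic helix-loop-helix factors, and GGGCGG or its complement CCGCCC, the box bound by SP and KLF factors.
Orai1: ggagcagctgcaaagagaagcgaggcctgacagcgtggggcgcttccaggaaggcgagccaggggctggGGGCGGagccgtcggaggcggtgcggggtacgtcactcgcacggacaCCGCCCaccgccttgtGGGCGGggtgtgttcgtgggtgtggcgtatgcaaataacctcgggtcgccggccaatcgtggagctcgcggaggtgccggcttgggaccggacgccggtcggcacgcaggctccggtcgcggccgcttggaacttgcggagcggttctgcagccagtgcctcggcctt
Orai2: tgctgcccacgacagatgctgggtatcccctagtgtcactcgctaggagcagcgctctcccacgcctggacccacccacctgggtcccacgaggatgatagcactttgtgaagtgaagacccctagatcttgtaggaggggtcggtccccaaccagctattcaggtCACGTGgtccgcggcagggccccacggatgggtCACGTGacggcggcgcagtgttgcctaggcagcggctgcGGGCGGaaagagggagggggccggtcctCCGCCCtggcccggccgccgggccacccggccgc
Orai3: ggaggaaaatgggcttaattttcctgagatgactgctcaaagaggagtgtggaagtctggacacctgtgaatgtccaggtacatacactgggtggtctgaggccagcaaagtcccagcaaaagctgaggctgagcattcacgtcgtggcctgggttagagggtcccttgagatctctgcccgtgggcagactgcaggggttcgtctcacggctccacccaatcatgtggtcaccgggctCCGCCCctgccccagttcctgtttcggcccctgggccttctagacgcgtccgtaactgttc
Stim1: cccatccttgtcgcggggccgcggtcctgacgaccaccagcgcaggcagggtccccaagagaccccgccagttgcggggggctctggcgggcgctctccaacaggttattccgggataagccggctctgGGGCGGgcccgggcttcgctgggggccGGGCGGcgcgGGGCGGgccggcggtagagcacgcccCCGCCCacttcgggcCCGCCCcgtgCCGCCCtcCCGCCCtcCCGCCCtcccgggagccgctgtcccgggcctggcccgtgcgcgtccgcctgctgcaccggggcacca
Stim2: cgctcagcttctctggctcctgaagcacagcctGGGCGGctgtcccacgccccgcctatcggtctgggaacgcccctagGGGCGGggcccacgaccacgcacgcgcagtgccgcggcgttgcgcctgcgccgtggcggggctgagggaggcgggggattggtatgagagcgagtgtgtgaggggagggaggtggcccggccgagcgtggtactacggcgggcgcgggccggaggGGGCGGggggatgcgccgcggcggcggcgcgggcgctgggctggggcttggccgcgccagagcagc
The RefSeq table held promoters for 8 of the 10 genes, and Itpr1 and Atp2a2 were not among them. The G and C content was 57.7% in Orai3 and 78.7% in Stim1, the lowest and highest of the 8, against a median of 52.7% over 32851 promoters. GGGCGG was present in all 8, from 1 match in Orai3 and Itpr3 to 8 in Stim1, and in 35.7% of all promoters. The promoters behind that share were not matched to the 8 for G and C content, whose upper quartile over all promoters was 61.7%. CACGTG was present in Orai2, where its matches begin 84 and 51 bases before the start, and once in Itpr3. In all, 7.15% of promoters hold CACGTG and 0.594% hold it at 2 or more places. Both strands were searched for 10 motifs, and CACGTG is its own complement. The first CACGTG of Orai2 shares 2 bases with its only AGGTCA, a half-site of nuclear receptors that 16.3% of promoters hold. The MEF2 motif, named for the factors that class IIa histone deacetylases bind, had 0 matches in these 8 windows and was in 3.19% of all promoters. The NFAT core GGAAA was in Orai2 and Orai3 and in 61.3% of all promoters. TGANTCA, TGACGTCA and GTCTAGAC had 0 matches in the 8, against 7.81%, 1.79% and 0.213% of promoters. CCGGAA was in Stim1 and Atp2a3 (14.9% of promoters) and CACCC in 6 of the 8 (57.5%). A match is a run of letters and not a bound site, and the motif set was chosen with the expression values known.

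SERCA pumps use ATP to move calcium back into the store; SERCA2, from Atp2a2, is found in nearly all cells and SERCA3, from Atp2a3, is prominent in blood cells. Atp2a2 had 9638 and 9194 normalised reads with TMP269, against 10086 and 9993 with DMSO. Its log2 fold change was -0.09 (95% interval -0.28 to 0.09, limma adjusted p = 0.418). Atp2a3 had 6232 and 5972 normalised reads with TMP269, against 5795 and 5672 with DMSO, and a log2 fold change of 0.09 (95% interval -0.08 to 0.26, limma adjusted p = 0.411). Neither pump was called in any of the 14 alternatives. The groups of both genes were separate by small margins in opposite directions. The ratio of Atp2a2 to Atp2a3 reads was accordingly 1.547 and 1.54 with TMP269 and 1.74 and 1.76 with DMSO (difference in mean log2 ratio -0.18, and -0.19 to -0.17 with any 1 library left out, exact permutation p = 0.333). Summed SERCA reads were 15518 ± 498 normalised reads with TMP269 and 15773 ± 153 with DMSO (SD, n = 2 each). IP3 receptor reads, summed over 3 genes, came to 7299 ± 371 with TMP269 and 5545 ± 468 with DMSO, 1.32-fold higher.

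**Figure D3:**
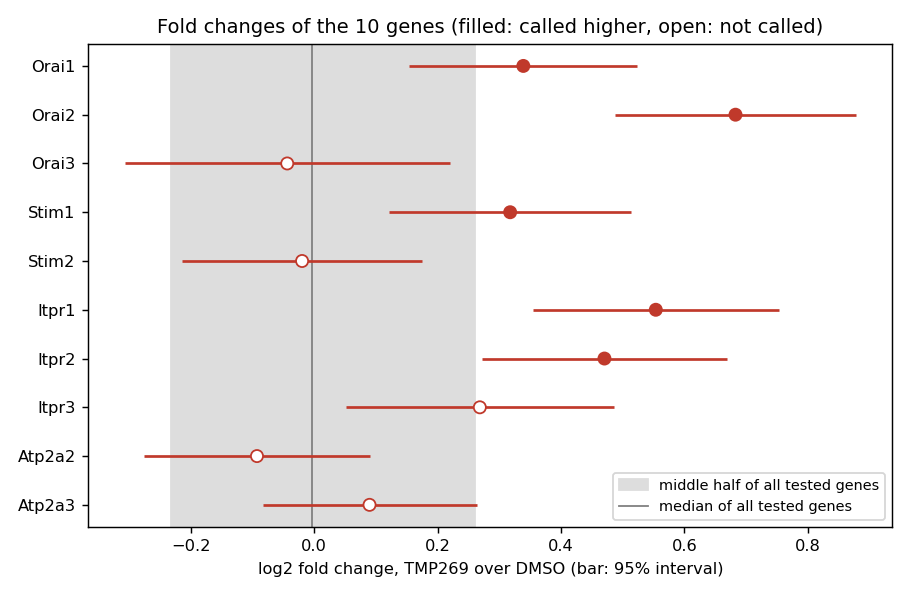
Log2 fold change of TMP269 over DMSO (x axis) for each gene, with 95% intervals from limma; filled points passed an adjusted p under 0.05. The grey band spans the lower to the upper quartile of all tested genes (-0.23 to 0.26). The 5 filled points lie above it, and so does the open point of Itpr3 (0.27). The intervals of Orai1, Stim1 and Itpr3 reach into the band.

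The scaling of libraries sets where 0 lies for such small changes. With equal library totals in place of the deposited size factors, the median over every tested gene moved by 0.10 on the log2 scale, and higher genes made up 67.3% of all calls in place of 46.5%. Orai1, Orai2, Stim1, Itpr1 and Itpr2 were called higher under that scaling too. Orai3, Stim2 and Atp2a2 changed sign under it, to 0.06, 0.08 and 0.01, all within that shift and none called.

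Other genes of the pathway were taken from 8 lists, of which 125 genes were tested: 20 (16%) were called higher and 14 (11.2%) lower, beside 12.8% and 14.7% of all genes, with a median log2 fold change of 0.04. Upstream, among genes that make or remove IP3, 4 of 16 rose and 2 fell (median 0.11). Plcb2, a phospholipase C driven by G proteins, had 1229 and 1225 normalised reads with TMP269, against 898 and 659 with DMSO (1.59-fold, limma adjusted p = 0.00800). Lcp2, the SLP-76 adaptor that brings phospholipase C gamma to the receptor complex, rose 1.29-fold (limma adjusted p = 0.0120, and 0.114 with TMP269 replicate 1 left out), and Itpkc, a kinase that removes IP3, rose 1.43-fold (0.0117). Plcg2 is the phospholipase C gamma of B cells and myeloid cells. It had 1103 and 992 normalised reads with TMP269, against 1618 and 1474 with DMSO (0.677-fold, limma adjusted p = 0.00370). The part of B cells and myeloid cells in this difference was not tested. Plcg1, the form used by the T cell receptor, was not called (4912 and 4772 with TMP269, 5117 and 4487 with DMSO, limma adjusted p = 0.914). Tec, a kinase of the same pathway, fell to 0.779-fold (limma adjusted p = 0.0257). That call was lost without DMSO replicate 1 (0.108), TMP269 replicate 1 (0.0997) or TMP269 replicate 2 (0.0520), and with equal totals (0.115) or equal totals without Rn45s (0.0923). The number that rose was 2 with TMP269 replicate 1 left out and 7 with equal totals.

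Partners of the entry machinery were called at shares of 7.14% and 12.5% in their lists, beside 27.5% of all tested genes. By direction, 12.8% of all tested genes were called higher and 14.7% lower. The 12.5% of IP3 receptor partners were all called higher, near the share of all genes. These shares rest on few genes, and their difference from all genes was not tested. Of 14 tested regulators of STIM and ORAI, 0 rose and 1 fell (median -0.03). With equal totals, with or without Rn45s, 3 members of this list were called higher, and 1 with TMP269 replicate 2 or DMSO replicate 1 left out; edgeR called 2 lower. Tmem66, which encodes the STIM inhibitor SARAF, did not pass (limma adjusted p = 0.177, log2 fold change 0.20), nor did Tmem110, which encodes the STIM partner STIMATE (0.633 and -0.07). Of 16 partners of IP3 receptors, 2 rose and 0 fell (median 0.03). Homer3, a scaffold protein, had 490 and 437 normalised reads with TMP269, against 257 and 240 with DMSO (1.86-fold, limma adjusted p = 0.00176). Lrmp, a lymphoid protein of the endoplasmic reticulum that binds IP3 receptors, rose 1.36-fold (limma adjusted p = 0.00780).

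Among SERCA regulators and proteins of the calcium store, 0 of 17 rose and 3 (17.6%) fell, with a median log2 fold change of -0.19. Over all tested genes 12.8% were called higher and 14.7% lower, so the share that fell was near that of all genes. Hsp90b1, the chaperone GRP94, had 15296 and 15642 normalised reads with TMP269, against 20818 and 23668 with DMSO (0.697-fold, limma adjusted p = 0.00615). Pdia4, a disulfide isomerase, fell to 0.764-fold (limma adjusted p = 0.00790), and Nucb2, a calcium-binding nucleobindin, fell to 0.636-fold (0.0137, but 0.0603 without TMP269 replicate 1 and 0.0659 without DMSO replicate 2). The main calcium buffer of the store, Calr, did not pass (limma adjusted p = 0.341, log2 fold change -0.13). Atp2a1, the SERCA pump of skeletal muscle, stayed between 7.60 and 18.9 normalised reads in the 4 libraries.

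Calls went both ways among genes tied to calcium leaving the cytosol. Of 5 tested genes of plasma membrane and Golgi export, pump subunits included, 1 (20%) rose and 1 (20%) fell (median 0.14). Over all tested genes the shares were 12.8% higher and 14.7% lower. Atp2b4, a calcium pump of the plasma membrane, rose to 7303 and 8282 normalised reads with TMP269, against 6199 and 6048 with DMSO (1.27-fold, limma adjusted p = 0.0197, and 0.180 with TMP269 replicate 2 or 0.0628 with DMSO replicate 2 left out). Bsg, basigin, a subunit of such pumps and of lactate transporters, fell to 0.650-fold (limma adjusted p = 0.00235). The other tested pump genes, Atp2b1 and Atp2c1, did not pass (limma adjusted p = 0.210 and 0.428, log2 fold changes 0.14 and -0.09). In mitochondria 1 of 12 genes (8.33%) rose and 3 (25%) fell (median 0.01). The 3 that fell were the outer membrane channel genes Vdac1, Vdac2 and Vdac3, at 0.555-fold, 0.762-fold and 0.761-fold. Vdac1 had 5689.9 and 5801 normalised reads with TMP269, against 10215 and 10497 with DMSO (limma adjusted p = 3.15e-04). Vdac2 did not pass with TMP269 replicate 2 left out (limma adjusted p = 0.0574), nor Vdac3 with TMP269 replicate 1 (0.0675) or DMSO replicate 2 (0.0623) left out. With TMP269 replicate 2 left out, 0 of the 12 rose. Mcu, the pore gene of the mitochondrial uniporter, did not pass (limma adjusted p = 0.885, log2 fold change 0.03).

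Other channels that bear on calcium entry in T cells had the largest share of rises among the 8 lists. Of 23 tested, 8 (34.8%) rose and 1 (4.35%) fell, with a median log2 fold change of 0.34. Over all tested genes 12.8% were called higher and 14.7% lower. The number that rose was 7 to 11 with any 1 library left out. Mcoln1, a lysosomal calcium channel, had 915 and 947 normalised reads with TMP269, against 584 and 525 with DMSO (1.68-fold, limma adjusted p = 0.00144). P2rx4, a channel gated by extracellular ATP, rose 1.62-fold (limma adjusted p = 0.00245) and Cacnb1, the beta subunit of a voltage-gated channel, 1.76-fold (0.00580). Kcnk5, a potassium channel gene, had 417 and 331 normalised reads with TMP269, against 670.3 and 574 with DMSO, and fell (log2 fold change -0.74, limma adjusted p = 0.00604). The potassium channel genes Kcna3 and Kcnn4, which keep the membrane voltage that drives calcium in, did not pass (limma adjusted p = 0.231 for Kcna3 and 0.106 for Kcnn4, with log2 fold changes of 0.20 and 0.26).

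Downstream of calcium entry, 4 of 22 genes (18.2%) of calcineurin, calmodulin and NFAT rose and 3 (13.6%) fell (median 0.03). Over all tested genes 12.8% were called higher and 14.7% lower, so the share that fell was near that of all genes. Nfatc1, an NFAT factor that NFAT itself induces, had 4337 and 3943 normalised reads with TMP269, against 2833 and 2704 with DMSO (1.49-fold, limma adjusted p = 0.00188). Nfat5, a relative that does not respond to calcineurin, rose by 0.58 on the log2 scale (limma adjusted p = 0.00822), and the calmodulin-dependent kinase gene Camk4 1.27-fold (0.0109, but 0.0661 without TMP269 replicate 2). Calm3, a calmodulin gene, fell to 0.753-fold (limma adjusted p = 0.00908), and Ppp3cc, a catalytic subunit of calcineurin, fell to 0.790-fold (0.0174). Ppp3cc did not pass with TMP269 replicate 1 (limma adjusted p = 0.124) or DMSO replicate 2 (0.0593) left out, nor with equal totals (0.0671) or equal totals without Rn45s (0.0545). The number of genes in this list that fell was 1 with TMP269 replicate 1 or DMSO replicate 2 left out. Reads of calmodulin genes and their pseudogenes may have been split in the counting.

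**Figure D4:**
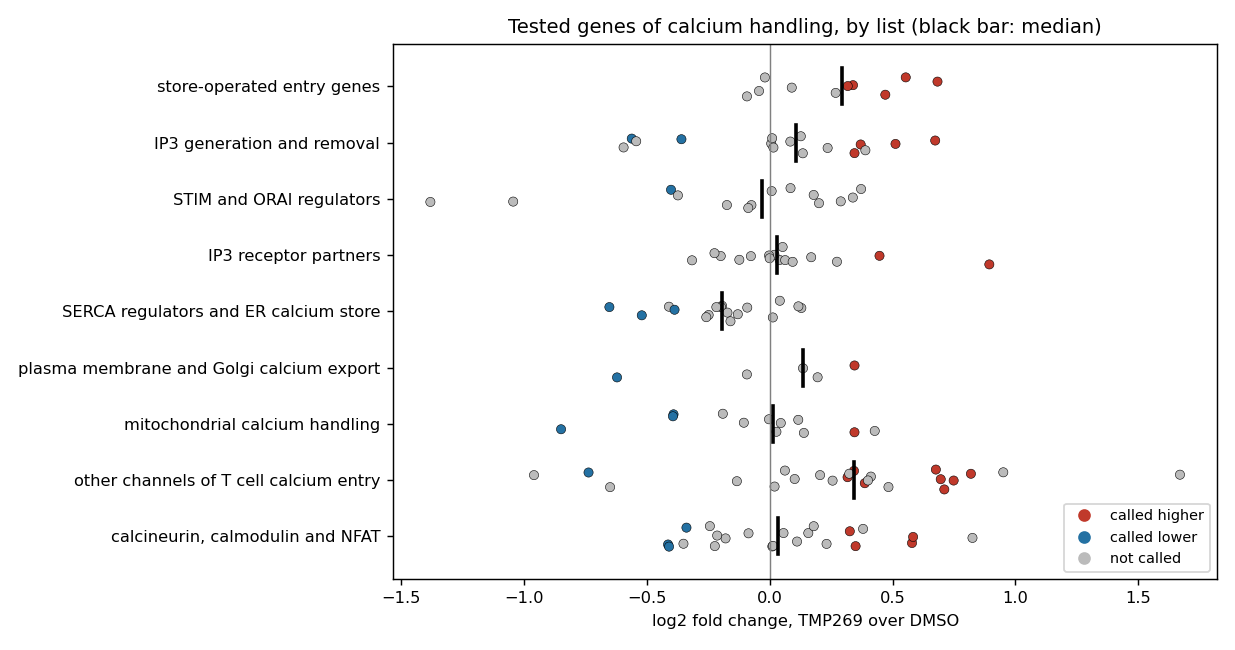
Log2 fold change of TMP269 over DMSO (x axis) for every tested gene of the store-operated entry group and the 8 lists, 1 point per gene, with vertical scatter only to separate points; red points were called higher, blue lower, grey not called, and black bars are medians. The median is 0.29 for the 10 entry genes, 0.34 for other channels and -0.19 for the store proteins.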

How the data were processed

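RNA was measured in 2 TMP269 and 2 DMSO libraries of mouse Th17 cells. The submitters' processing notes name build mm9 and, with no role for any of them, DESeq2, HTSeq, TopHat2 2.1.0, Bowtie2 and CASAVA 1.4. The annotation, strand setting and treatment of reads with several matches were not given in the sources used here. Reads of overlapping and antisense genes and pseudogenes therefore cannot be told apart. The deposited values are a signal, read counts divided by the authors by 1 size factor per library (0.967 and 1.05 for TMP269, 1.11 and 0.829 for DMSO), as the values show: 100% are whole multiples, within 1e-06 read.

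Genes that reached a value of 10 in 2 or more libraries were tested with limma 3.58.1 (R 4.3.3), after log2(value + 1), using a variance trend and no covariate, two-sided, Benjamini-Hochberg adjusted over 12535 genes and called under 0.05. The pseudocount understates changes of low genes. On the recovered reads edgeR 4.0.16 called 3406 genes and DESeq2 1.42.0 called 2853, against 3448 with limma. The other alternatives were 3 scalings, 2 pseudocounts, 2 filters, a replicate block and leaving out each library.

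The genes, lists and tests were chosen with earlier results of these data known. Named genes are the 10, up to 3 called genes per direction in each list by smallest p, and Il17a, Il17f and Il2; some of these are not reported here. Cd4, Plcg1, Tmem66, Tmem110, Calr, Atp2a1, Atp2b1, Atp2c1, Mcu, Kcna3 and Kcnn4 were named after their values were seen, for their role. With 4 libraries in 2 groups, no genes were ranked by likeness to a member. Transcript lengths were not used here, so levels of different genes are not compared.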

Additional observations from a re-analysis of the deposited data

How the results depend on the processing

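Of 140 member results under the 14 alternatives, 124 kept direction and side of the threshold. Those that did not are the lost Orai1 and Stim1 calls and the gained Itpr3 calls above, and sign changes of genes that were not called. With equal totals Orai3, Stim2 and Atp2a2 came to 0.0603, 0.0844 and 0.0114, and with equal totals without Rn45s to 0.0515, 0.0756 and 0.00257 on the log2 scale. With 1 library left out Orai3 ranged from -0.173 to 0.0851, Stim2 from -0.0492 to 0.00963 and Atp2a2 from -0.13 to -0.06. The lone library of a group is then assumed to vary like the others.

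Over all genes 1602 were called higher and 1846 lower. With 1 library left out the counts ran from 1063 to 1802 and from 1015 to 1873, lowest without DMSO replicate 2, and 1139 lower genes without TMP269 replicate 1. Equal totals gave 1042 lower genes and equal totals without Rn45s 1151, where 6 of the 10 entry genes were called higher. The number of entry genes called higher was 3 to 5 with 1 library left out, and 0 were called lower in any alternative. The cause of these moves was not tested.

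With the replicate number as a block, 3008 genes were called higher and 3352 lower, 37 and 31 of them in the 8 lists (4 and 3 among regulators of STIM and ORAI), and Itpr3 was called (limma adjusted p = 3.97e-04). Deviations of same-numbered libraries correlated at r = 0.37 across genes, which are not independent, and the labels do not say that a number marks a shared culture or day, so the block is not used elsewhere. The exact test of ratios cannot pass 0.05 with these libraries. The Itpr1 to Itpr2 log2 ratio differed by 0.08, and by -0.02 without TMP269 replicate 1.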
